A study of Mus musculus with 8 samples.

Results

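The natriuretic peptide system of the injured left ventricle was described by 6 genes out of 38293 in the count table: the peptide genes Nppa and Nppb, the receptor genes Npr1, Npr2 and Npr3, and the protease gene Corin. They were chosen by name as a gene family, with earlier results of these data known, and all 6 had enough counts to be tested. Polyadenylated RNA of C57BL/6J mouse left ventricle was sequenced 3 days after ischemia-reperfusion injury, made by closing the left anterior descending artery and letting blood return. In 4 libraries the heart had been injected with a UPy-PEG hydrogel, a polymer gel that serves as a drug depot, carrying antimiR-195, which is directed against the microRNA miR-195. In the other 4 the same gel held no drug. Every library thus carried the injury and the gel, no uninjured ventricle was analysed here, and the labels do not separate injured from remote myocardium. No label says that the libraries came from separate mice, so p-values reflect only how these libraries vary, which may be technical.

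Atrial natriuretic peptide and B-type natriuretic peptide are cardiac hormones that lower blood pressure and salt load. Nppa and Nppb encode their precursors, and corin, a membrane protease of cardiomyocytes, cleaves the atrial precursor to its active form. Both peptides act through Npr1, a receptor guanylyl cyclase that makes cGMP. Npr2 is the related cyclase receptor for C-type natriuretic peptide, and Npr3 is the clearance receptor, which takes the peptides out of the circulation. In the adult heart Nppa is chiefly an atrial gene that ventricular myocytes express again under load or injury, and Nppb is induced by stretch and ischemia.

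The drug in the gel is aimed at miR-195, so its sequence and its seed are shown to make plain what a target site would look like. The seed, bases 2 to 8, is in capitals, and miR-15a and miR-16 of the same seed are set beside it. The sequences are those of RefSeq on GRCm38.p6, where miR-195a-5p lies on the plus strand at chr11:70235062-70235082.
mmu-miR-195a-5p: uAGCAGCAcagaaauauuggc
mmu-miR-15a-5p: uAGCAGCAcauaaugguuugug
mmu-miR-16-5p: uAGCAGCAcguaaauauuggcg
Of the 6 genes, only Npr2 held a seed match of 7 bases or more in the longest annotated 3′ UTR, where 28.5% of the 12874 tested genes with a 3′ UTR held one. The Npr2 match pairs with bases 2 to 8 of the microRNA and lies in the exonic 3′ UTR. The printed window of 23 bases around it is chr4:43650985-43651007 on the plus strand of GRCm38, with the match in capitals.
Npr2 site: ggccggccatcttcTGCTGCTgg
The 3′ UTRs of Nppa, Nppb, Npr1, Npr3 and Corin, of 293, 227, 529, 5281 and 1461 bases, held no match of these classes. The microRNA itself was not measured, since its gene Mir195a had 0 to 2 counts per library in polyadenylated RNA.

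Nppa and Nppb are neighbours on the plus strand of chromosome 4, at 148000722 to 148002079 and 147985788 to 147987205 in the GENCODE M21 annotation of GRCm38, and their starts lie 14934 bases apart. The 250 bases before each RefSeq start are printed because both are peptide genes of stressed myocytes and can be read side by side. Capitals mark matches, on either strand, to the words GATAA, which GATA factors bind at their core, CATTCC, which TEAD factors bind, and TATAAA, the TATA box. None of the matches overlap. Nppa is at chr4:148000472-148000721 and Nppb at chr4:147985650-147985899, both plus strand, GRCm38.p6. The RefSeq start of Nppb is at 147985900, so part of its window lies inside the GENCODE gene model.
Nppa promoter: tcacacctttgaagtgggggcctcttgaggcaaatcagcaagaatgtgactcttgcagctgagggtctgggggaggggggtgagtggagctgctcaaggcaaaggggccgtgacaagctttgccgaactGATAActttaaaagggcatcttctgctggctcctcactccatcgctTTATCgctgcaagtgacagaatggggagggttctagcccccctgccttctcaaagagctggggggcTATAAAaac
Nppb promoter: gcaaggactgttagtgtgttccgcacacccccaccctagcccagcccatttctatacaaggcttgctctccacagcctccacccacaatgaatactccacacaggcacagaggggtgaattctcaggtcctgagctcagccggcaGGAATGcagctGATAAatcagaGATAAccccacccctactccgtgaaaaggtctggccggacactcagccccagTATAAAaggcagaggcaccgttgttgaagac
Each peptide promoter held 2 GATAA matches and 1 TATAAA match, and the Nppb promoter also held 1 CATTCC match. Among 32851 promoters of the same length, the GATA word was held by 22.6%, the TEAD word by 12.6% and the TATA word by 12.4%. The 4 windows of Npr1, Npr2, Npr3 and Corin held none of the 3 words, which says nothing of the factors beyond these letters.

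Per length, the peptide transcripts far exceeded those of their receptors. The authors' deposited RPKM (reads per kilobase of gene, scaled to library depth) had a mean over the 8 libraries of 1074 for Nppa, 395 for Nppb, 28.0 for Corin, 11.2 for Npr2, 4.60 for Npr1 and 1.99 for Npr3. Each gene stood above the next in this order in 8 of 8 libraries. Between libraries only the neighbours Nppa and Nppb overlapped, since the lowest Nppa level of 544.0 RPKM was below the highest Nppb level of 556 RPKM. The guanylyl cyclase receptor Npr1, which both cardiac peptides use, was thus at a level 2.31 times that of the clearance receptor Npr3, and Npr2 at 2.43 times that of Npr1.

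**Figure D1:**
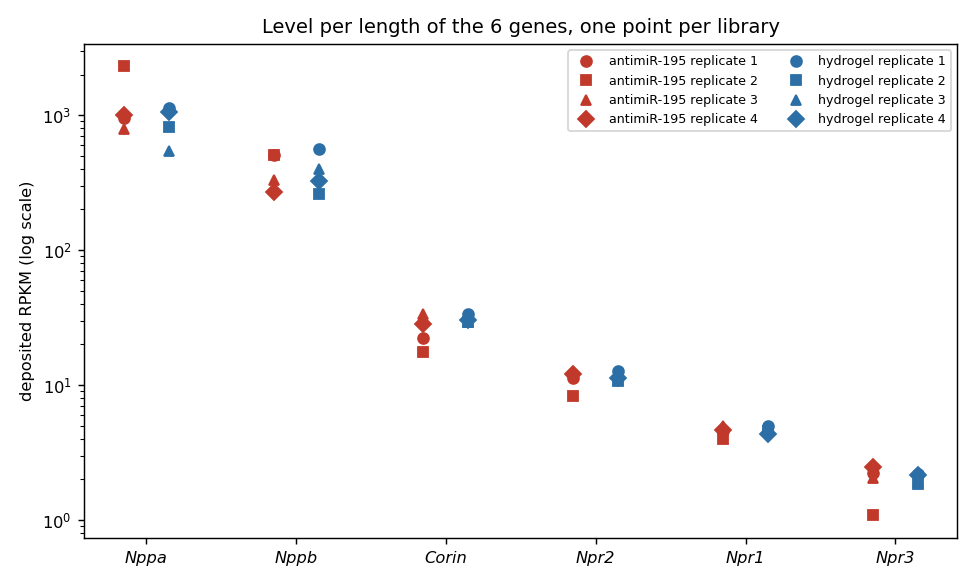
Deposited RPKM of the 6 genes on a log axis, with 1 point per library, antimiR-195 in red to the left and drug-free hydrogel in blue to the right. The order from Nppa to Npr3 holds within every library, and only Nppa and Nppb share part of their range.

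The libraries were checked for tissue and quality. Total gene counts ranged from 16872968 to 22751753. The 12 ventricular myocyte markers summed to 83842 to 93357 CPM with antimiR-195 and 78811 to 94331 CPM without, where CPM is the gene's count scaled to a common normalized library size. Of 9 atrial markers found, Bmp10 had 0 counts in all 8 libraries, which allows up to 0.138 to 0.179 CPM (3 counts per library, counting error only), and the atrial light chain Myl7 had 0.224 to 13.7 CPM. One library stood apart: antimiR-195 replicate 2. The share of counting entries set aside there as not uniquely aligned was the highest, 47.8% against 42.1% to 44.5% in the other 7. Unaligned reads are not part of this share, and a read aligned to several places may enter it more than once. The library also favoured short genes. Its log2 CPM changed by -0.21 for each doubling of gene length relative to the mean of all libraries, against -0.08 to 0.15 in the others. Among the 1398 shortest genes its median log2 difference from the mean of the 8 libraries was 0.55, and among the 1398 longest it was -0.33. Nppa and Nppb, at 865 and 781 bases, are among the shortest genes tested, and Npr2, Npr1, Corin and Npr3, at 4667, 4783, 5400 and 6927 bases, are long, so the fold change of each of the 6 genes is given with and without this library.

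Setting antimiR-195 against the drug-free gel asked whether the inhibitor changed the peptide system 3 days after injury. With edgeR's quasi-likelihood test and an adjusted p threshold of 0.05, 0 of the 6 genes passed, as did 0 of the 13972 genes tested, a background of 0%. The adjusted p of each of the 6 was 0.9999. At an unadjusted p below 0.05 the same test held 0 of the 6 genes and 178 of all genes, or 1.27%. No gene was called by DESeq2, where 237 of 22665 genes had an unadjusted p below 0.05, by weighted limma-voom, where 333 of 13972 did, or by limma-trend on RPKM, where 180 or 182 did, depending on the pseudocount. The CPM ranges of the groups overlapped for all 6 genes, where 1.07% of all genes had ranges that did not.

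Nppa, the atrial peptide gene, had 805, 1919, 695 and 875 CPM in antimiR-195 replicates 1 to 4, against 975, 722, 494 and 889 CPM in hydrogel replicates 1 to 4. A single library, antimiR-195 replicate 2, was 1.97 times the next highest, and the remaining antimiR-195 libraries fell inside the hydrogel range. The means were 1074 ± 568 CPM with antimiR-195 and 770.3 ± 212 CPM with drug-free gel (SD, n = 4 each), a log2 fold change of 0.48 ± 0.32 (SE). As a fold it was 1.39 with a 95% confidence interval from 0.849 to 2.29, so a doubling was within the error of this design. Without antimiR-195 replicate 2 the log2 fold change was 0.03 ± 0.19. In that library Nppa lay 1.36 above the hydrogel mean in log2 CPM, and 0.77 above it after the length trend of each library had been removed, still the highest of the 8.

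Nppb, the B-type peptide gene, had 388, 384, 262 and 212 CPM in antimiR-195 replicates 1 to 4, against 433, 207, 327 and 247 CPM in hydrogel replicates 1 to 4. Both groups covered nearly the same range, and the highest and lowest libraries were both in the hydrogel group. The means were 312 ± 88.3 CPM with antimiR-195 and 304 ± 100.1 CPM with drug-free gel (SD, n = 4 each), a log2 fold change of 0.04 ± 0.26 and a fold of 1.03 with a 95% confidence interval from 0.692 to 1.52. In the library that favoured short genes Nppb was 0.40 above the hydrogel mean in log2 CPM, and -0.23 relative to it once the length trend was removed. Leaving that library out turned the sign, to -0.09.

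The balance of the ligands varied widely among libraries of both groups. The log2 ratio of Nppa to Nppb per library was 1.05, 2.32, 1.41 and 2.04 in antimiR-195 replicates 1 to 4, against 1.17, 1.80, 0.59 and 1.85 in hydrogel replicates 1 to 4. The group ranges overlapped, and the means differed by 0.35, with p = 0.4 in a two-sided exact permutation test over the 70 assignments and 0.533 when adjusted over the 4 ratios examined. The smallest p that this test can give is 0.0286. Across the 8 libraries the log2 CPM of Nppa and Nppb had a Pearson's r of 0.33 and a Spearman's rho of 0.33, with exact permutation p = 0.467 and 0.428, or 0.583 and 0.917 adjusted over 15 pairs. Without antimiR-195 replicate 2 and hydrogel replicate 3, the libraries farthest from the Nppa median, r was 0.45.

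**Figure D2:**
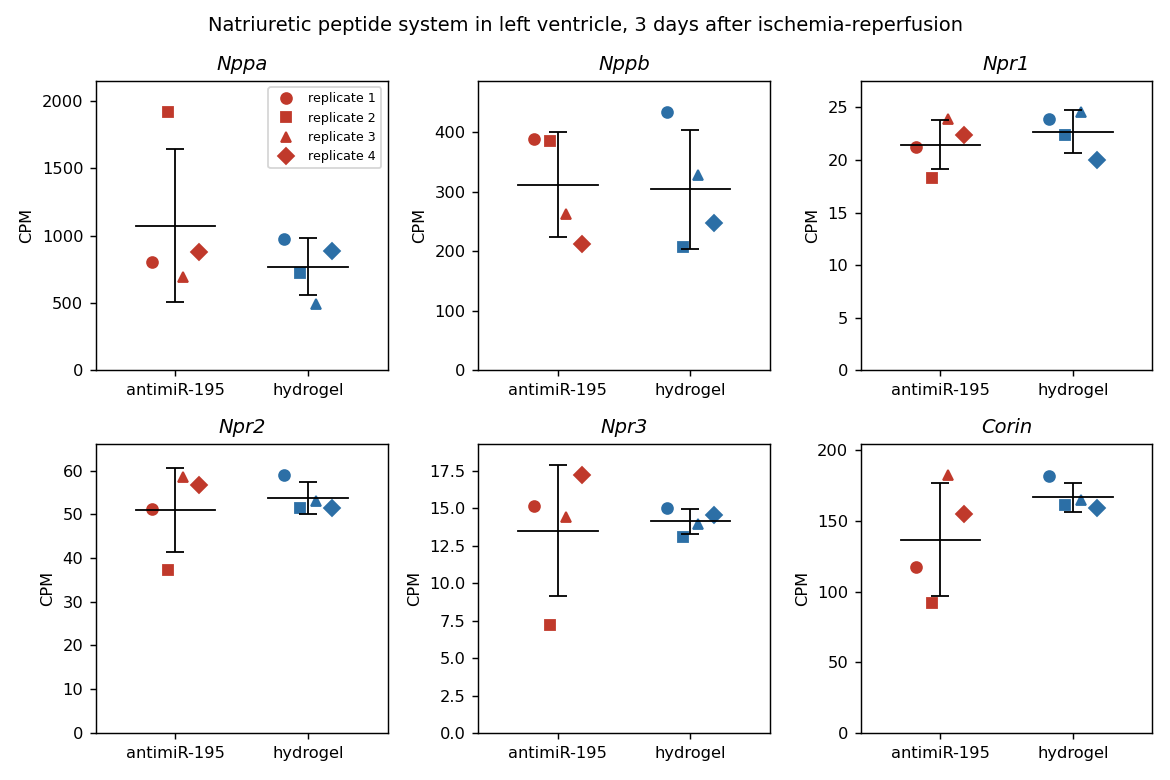
CPM of the 6 genes in each library, antimiR-195 in red on the left and drug-free hydrogel in blue on the right of each panel, with the mean and SD in black and replicates by marker shape. The square in red, antimiR-195 replicate 2, is the highest point for Nppa at 1919 CPM and the lowest for Npr1, Npr2, Npr3 and Corin.

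Corin, the protease that activates the atrial peptide, had 117, 92.0, 183 and 155 CPM in antimiR-195 replicates 1 to 4, against 182, 161, 165 and 159 CPM in hydrogel replicates 1 to 4. The hydrogel libraries lay close together, and antimiR-195 replicates 1, 2 and 4 lay below all of them while replicate 3 was the highest of the 8. The means were 137 ± 40.1 CPM with antimiR-195 and 167 ± 10.3 CPM with drug-free gel (SD, n = 4 each), a log2 fold change of -0.29 ± 0.19 and a fold of 0.819 with a 95% confidence interval from 0.612 to 1.10. In edgeR's quasi-likelihood test its unadjusted p was 0.16 and its adjusted p 0.9999. Without antimiR-195 replicate 2 the log2 fold change was -0.15, and without antimiR-195 replicate 3 it was -0.46. With the length trend removed it was -0.32 ± 0.15. AntimiR-195 replicate 3 tilted the other way, towards long genes, with a slope of 0.15 per doubling of length. Its Corin level relative to the hydrogel mean was 0.13 in log2 CPM before and 0.04 after removal of the trend, when hydrogel replicate 1 was the highest at 0.15.

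Corin lies on the minus strand of chromosome 5 at 72300025 to 72504473 (GRCm38). It was also set against the ventricular myocyte markers. In these bulk samples fewer cells of a type and less RNA per cell cannot be told apart. The log2 ratio of Corin to the mean of 12 markers was -5.52, -5.86, -4.86 and -5.16 in antimiR-195 replicates 1 to 4, against -4.91, -5.07, -5.14 and -4.95 in hydrogel replicates 1 to 4. As for its CPM, antimiR-195 replicates 1, 2 and 4 were below all hydrogel libraries and replicate 3 above them. The group difference of -0.33 had p = 0.257 in the exact permutation test and 0.533 adjusted over the 4 ratios. Every antimiR-195 library but replicate 3 was below the hydrogel range, so leaving replicate 3 out was bound to separate the ranges. The difference was then -0.49, with an exact permutation p of 0.0286, or 0.114 adjusted. With 3 against 4 libraries, 0.0286 is also the smallest p the test can give. The choice of library fixed this p, so no conclusion is drawn from it. Without antimiR-195 replicate 2 the difference was -0.16, with an exact permutation p of 0.486, or 0.686 adjusted.

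The receptor genes showed no difference beyond the spread of the libraries. In GRCm38 Npr1 lies on the minus strand of chromosome 3 at 90450591 to 90465866, Npr2 on the plus strand of chromosome 4 at 43631935 to 43651244, and Npr3 on the minus strand of chromosome 15 at 11839896 to 11907287. Npr1 had 21.2, 18.3, 23.9 and 22.3 CPM in antimiR-195 replicates 1 to 4, against 23.9, 22.4, 24.6 and 19.98 CPM in hydrogel replicates 1 to 4. Its coefficient of variation over all libraries was 9.67%, the lowest of the 6 genes, but without antimiR-195 replicate 2 it was 7.20% and that of Npr2 lower, at 6.44%. Its log2 fold change was -0.08 ± 0.12, or -0.02 without antimiR-195 replicate 2. As a fold this was 0.944, with a 95% confidence interval from 0.784 to 1.14.

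Npr2, the only one of the 6 with a miR-195 seed match, had 51.2, 37.3, 58.5 and 56.7 CPM in antimiR-195 replicates 1 to 4, against 59.1, 51.3, 53.1 and 51.5 CPM in hydrogel replicates 1 to 4. Apart from the low value of antimiR-195 replicate 2, all libraries lay within a range of 1.16 times. The means were 50.9 ± 9.59 CPM with antimiR-195 and 53.8 ± 3.63 CPM with drug-free gel (SD, n = 4 each). Its log2 fold change was -0.08 ± 0.14, or 0.04 ± 0.10 without antimiR-195 replicate 2, and the 95% confidence interval of the fold was 0.76 to 1.18.

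Npr3, the clearance receptor gene, had 15.2, 7.22, 14.4 and 17.3 CPM in antimiR-195 replicates 1 to 4, against 15.02, 13.1, 13.9 and 14.5 CPM in hydrogel replicates 1 to 4. AntimiR-195 replicate 2 was far below the others, and antimiR-195 replicate 4 was the highest. The log2 fold change was -0.07 ± 0.22, and without replicate 2 it turned to 0.13 ± 0.11. Npr3 was the least counted of the 6 genes, at 132 to 303 counts per library. The log2 ratio of the cyclase receptor Npr1 to Npr3 averaged 0.73 ± 0.43 with antimiR-195 and 0.67 ± 0.16 without (SD, n = 4 each), with p = 0.914 in the exact permutation test and also when adjusted over the 4 ratios.

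**Figure D3:**
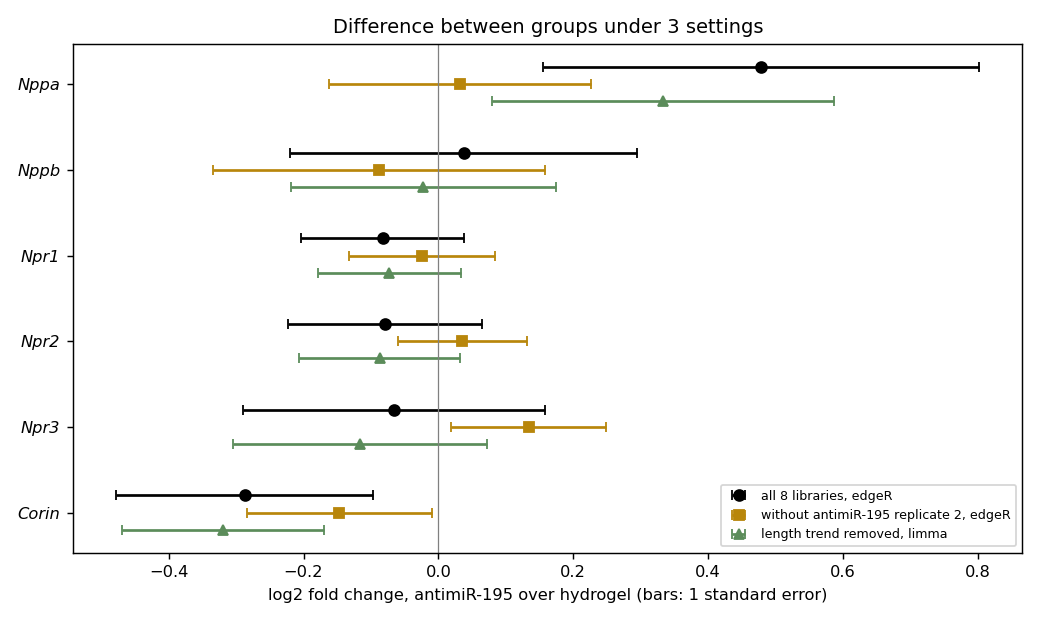
Log2 fold change of antimiR-195 over hydrogel for each gene with bars of 1 standard error, for all 8 libraries and without antimiR-195 replicate 2 in edgeR, and with the length trend removed in limma. Nppa is at 0.48, 0.03 and 0.33 under the 3 settings, and Corin at -0.29, -0.15 and -0.32.

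The correlations among the receptors and Corin were smaller without 1 library. All 6 pairs among Npr1, Npr2, Npr3 and Corin had a positive Pearson's r over the 8 libraries, and 4 of the 6 without antimiR-195 replicate 2. The closest pair by the unadjusted p was Npr2 and Corin, with r = 0.90 and rho = 0.81, exact permutation p = 0.00362 and 0.0218, and 0.0543 and 0.163 adjusted over 15 pairs. Its r was 0.65 without antimiR-195 replicate 2 and 0.56 without that library and hydrogel replicate 1. Nppa and Npr1 had r = -0.81 and rho = -0.74, with exact permutation p = 0.0145 and 0.0458, and 0.0588 and 0.229 adjusted. Without antimiR-195 replicate 2 the r of Nppa and Npr1 was -0.52. It was -0.18 without that library and hydrogel replicate 3, the libraries farthest from the Nppa median. Leaving out the extremes of Nppa narrows its range, which by itself can make r smaller. In the exact permutation test of r, 5 of the 15 pairs had an unadjusted p below 0.05 and 0 passed after adjustment.

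In antimiR-195 replicate 2 the 4 long genes were low before and after removal of the length trend, Npr1 least. Npr3 was -0.96 relative to the hydrogel mean in log2 CPM before and -0.71 after the trend was removed, Corin -0.86 before and -0.70 after, Npr2 -0.52 before and -0.42 after, and Npr1 -0.30 before and -0.19 after. After removal Npr3, Corin and Npr2 were still lowest of the 8 libraries there, whereas Npr1 lay inside the hydrogel range, above hydrogel replicate 4 at -0.21. The part of RNA quality in these values was not tested beyond this.

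**Figure D4:**
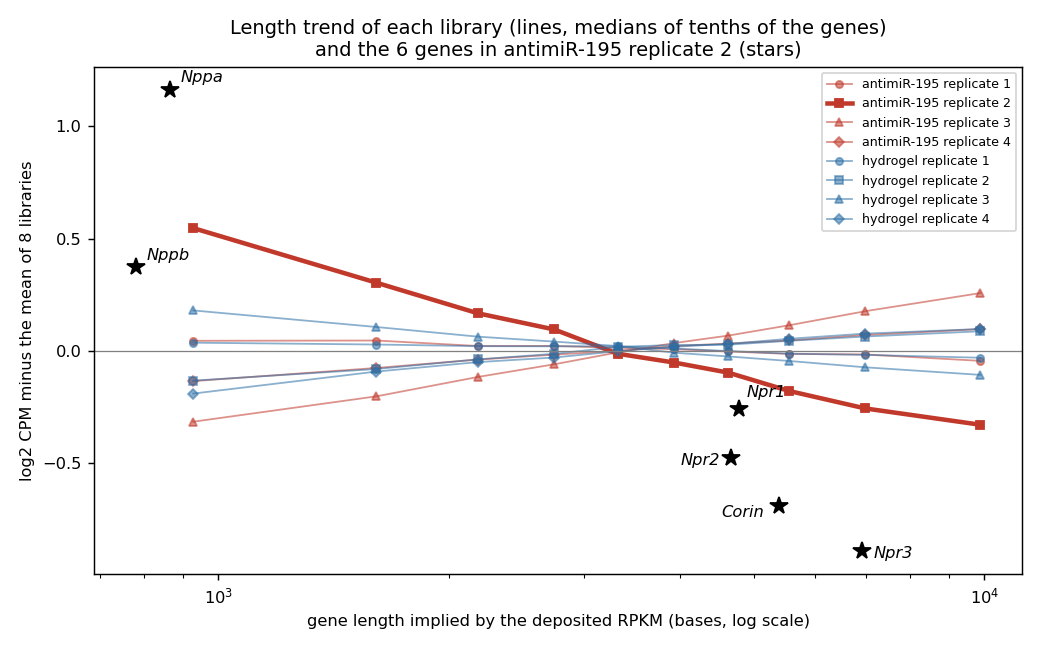
Median log2 CPM minus the mean of the 8 libraries in 10 equal bins of genes by length, 1 line per library, antimiR-195 in red and hydrogel in blue, with the 6 genes in antimiR-195 replicate 2 as stars. The line of antimiR-195 replicate 2 lies at 0.55 in the bin of shortest genes and at -0.33 in that of the longest, and the stars lie on the same sides of 0 as the line.

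Nppa is a marker of atrial tissue, so it was read beside the other atrial markers. The 7 tested markers summed to 71.4 to 135 CPM with antimiR-195 and 89.5 to 124 CPM without. Myl7 was at 0.224, 9.68, 2.69 and 13.7 CPM in antimiR-195 replicates 1 to 4, against 2.01, 12.0, 10.2 and 3.66 CPM in hydrogel replicates 1 to 4. The order of the libraries differed between Nppa and Myl7: the library lowest in Myl7 had 805 CPM of Nppa, and hydrogel replicate 3, among the 3 libraries highest in Myl7, had the lowest Nppa. AntimiR-195 replicate 2, highest in Nppa, had a summed atrial level of 105 CPM, inside the hydrogel range. Much of that sum was Kcnj3, a potassium channel gene of 5215 bases, which was lowest in this library at 33.8 CPM, against 52.99 to 60.1 CPM in hydrogel libraries. Stard10, of 2383 bases, was highest in it at 31.9 CPM. Myl4, also an atrial light chain gene, had 19.9 CPM there, just above the hydrogel range of 7.51 to 19.7 CPM. Only antimiR-195 replicate 4 had more Myl4, at 21.4 CPM. The part of the length tilt in the sum was not tested. The log2 ratio of Nppa to the mean of the 7 tested atrial markers averaged 7.42 ± 0.95 with antimiR-195 and 6.79 ± 0.85 without (SD, n = 4 each), with p = 0.371 in the exact permutation test and 0.533 adjusted. It was highest, at 8.48, in antimiR-195 replicate 1, where Sln had 0 CPM and Myl7 0.224 CPM. Sparsely counted markers weigh as much as the others in this mean of log2 CPM, which limits the ratio.

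**Figure D5:**
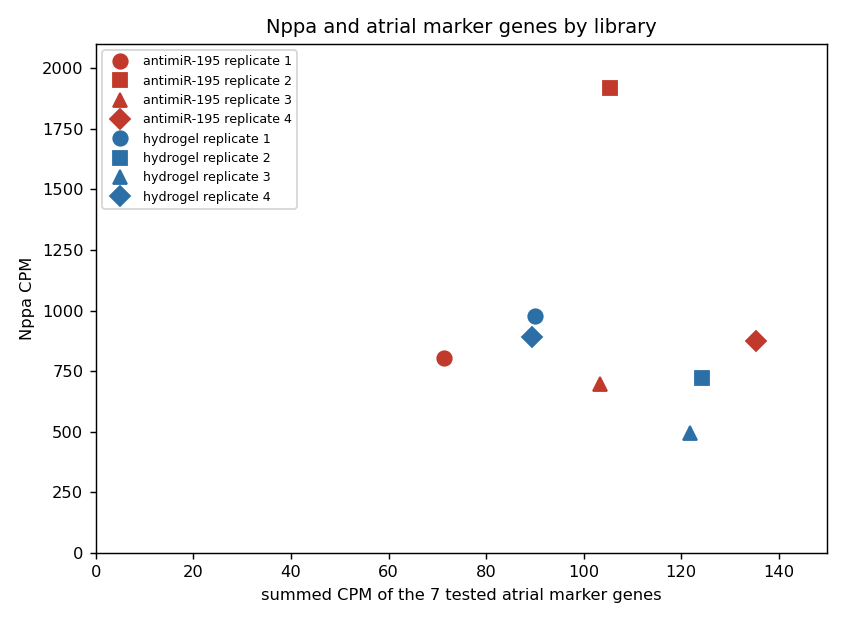
Nppa CPM against the summed CPM of the 7 tested atrial marker genes, 1 point per library, antimiR-195 in red and hydrogel in blue. AntimiR-195 replicate 2 stands at 1919 CPM of Nppa with an atrial sum of 105 CPM, and the libraries with the highest atrial sums have 875, 722 and 494 CPM of Nppa.

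Other genes of the pathway gave no call either. Of 16 further genes of peptide processing and cGMP signalling found in the files, 14 were tested. Of these, 4 were on the positive side and 10 on the negative, and the median log2 fold change was -0.04 against 0.01 over all genes tested, of which 52.4% were positive. The median was 0.06 without antimiR-195 replicate 2. Of the 14, 0 passed the threshold and 0 had an unadjusted p below 0.05. The remaining ligands, Nppc for C-type peptide and Ostn for osteocrin, which binds the clearance receptor, had at most 3 counts (Nppc) and 1 count (Ostn) in a library and were not tested. The convertases Furin, at 102 ± 12.0 CPM with antimiR-195 and 105 ± 12.6 CPM without, and Pcsk6, which activates corin, at 60.2 ± 9.30 CPM with antimiR-195 and 64.0 ± 12.5 CPM without, differed by less than their spread (SD, n = 4 each). Of the peptide-degrading enzymes, neprilysin, encoded by Mme, was at a log2 fold change of -0.18 ± 0.33 and Ide at -0.09 ± 0.19. Mme was at 0.05 without antimiR-195 replicate 2.

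Downstream of the receptors, the cGMP-dependent kinase gene Prkg1 was at -0.25 ± 0.55, and the phosphodiesterase genes Pde5a and Pde9a, which break down cGMP, at 0.05 ± 0.13 and 0.33 ± 0.21, all as log2 fold changes. Without antimiR-195 replicate 2, Prkg1 and Pde9a were each at 0.13 and Pde5a at 0.07. Prkg1 was sparsely counted, with 2 to 33 counts per library and 0.109 CPM in antimiR-195 replicate 2. Mrvi1, a substrate of the kinase, had the smallest p of these genes, with 9.94 ± 0.877 CPM with antimiR-195 and 8.11 ± 0.996 CPM with drug-free gel (SD, n = 4 each). Its log2 fold change was 0.29 ± 0.14, and edgeR's quasi-likelihood test gave it an unadjusted p of 0.0591 and 0.9999 after adjustment. The subunits of soluble guanylyl cyclase, the other source of cGMP, were at -0.16 ± 0.17 for Gucy1a1 and -0.06 ± 0.16 for Gucy1b1.

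Among 15 transcription factors that act on the peptide promoters, 6 were positive and 9 negative, with a median log2 fold change of -0.04 and 0 called, where 52.4% of all genes were positive. Their median was 0.03 without antimiR-195 replicate 2. Gata4, the main cardiac GATA factor, was at -0.08 ± 0.15, Nkx2-5 at -0.01 ± 0.16 and Tbx20 at -0.09 ± 0.29. Tead1, a factor that binds the CATTCC word, was at 0.05 ± 0.45, with its lowest level of 10.3 CPM in antimiR-195 replicate 2 and its highest of 59.4 CPM in antimiR-195 replicate 3. The co-activator Myocd was at 0.24 ± 0.30. When antimiR-195 replicate 2 was left out, Gata4 was at 0.02, Tbx20 at 0.13, Tead1 at 0.33, Nkx2-5 at -0.12 and Myocd at 0.46.

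Of 9 tested stress genes of myocytes, 7 were positive and 2 negative, with a median of 0.13 and 0 called, and the median was -0.02 without antimiR-195 replicate 2. Acta1, the fetal skeletal actin, was at 715 ± 240 CPM with antimiR-195 and 464 ± 154 CPM with drug-free gel (SD, n = 4 each), a log2 fold change of 0.62 ± 0.28. It was the 1 gene of this list with an unadjusted p below 0.05, at 0.0499 in edgeR's test against 0.9999 adjusted, and without antimiR-195 replicate 2 its log2 fold change was 0.37. Ankrd1, a stretch-responsive nuclear protein, was at 0.01 ± 0.21, and at -0.11 without that library. Myh7, a myosin of the fetal ventricle, was at -0.56 ± 0.36, and at -0.45 without antimiR-195 replicate 2. Its hydrogel libraries were spread, at 931, 270, 551 and 278 CPM in replicates 1 to 4, against 258 to 403 CPM with antimiR-195. With all libraries the group difference of Nppa, 0.48, lay between those of Acta1 and Ankrd1, and none of them passed the threshold.

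The genes most like Nppa over the 8 libraries, by Pearson's r of log2 CPM among 9511 well expressed genes, were Men1 at 0.99, Pdlim7 at 0.98, and Meg3, Ctsk and Ctla2b at 0.97 each. Without antimiR-195 replicate 2 their r was 0.97, 0.93, 0.97, 0.91 and 0.88, in the same order. Those most like Nppb were Zwint at 0.99, Dhdds at 0.98, Anxa7 and 4930481A15Rik at 0.96 and Riok3 at 0.94, with r from 0.95 to 0.99 without that library. These are the highest of 9511 values each over only 8 points that share library and depth, and they are given as a description.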

How the data were processed

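Left ventricular polyadenylated RNA of 8 libraries was extracted with TRIzol and prepared with a TruSeq stranded mRNA kit, per the labels' protocols. STAR, HTSeq and DESeq are tools, and GRCm38 the build, in the submitters' processing notes. Not stated in what was used here are their versions, the annotation release and the strand setting. The values used are whole-number counts per Ensembl gene deposited by the authors, identical in the series table and the library files (0 differing cells), and RPKM deposited by the authors, which gave levels per length and gene lengths. HTSeq lines that name no gene stayed out of library sizes: per library, 6.38% to 7.55% of uniquely aligned reads hit no counted feature and 0.772% to 1.05% were ambiguous. Of the 6 members, 5 overlap an annotated gene on the opposite strand, and those found had at most 15 counts, so without the strand setting such reads cannot be told apart.

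Groups came from the drug label, and replicates were numbered in accession order. Gene names came from the given GENCODE table (36345 of 38293 identifiers). Counts were tested with edgeR 4.0.16 (R 4.3.3; TMM, filterByExpr, 13972 genes, quasi-likelihood test, Benjamini-Hochberg adjustment over all genes), and checked on simulated data. Errors of log2 fold changes are standard errors. Log2 CPM used a prior count of 2. Single values per library were tested by two-sided exact permutation. DESeq2 1.42.0, limma 3.58.1 (log2 of RPKM plus 0.1 or 1, voom with quality weights), upper-quartile factors, no filter and leaving out each library were alternatives; removal of a lowess trend on gene length was added after seeing the data. Members and lists were chosen with earlier results of these data known. Named genes were the members, the lists' members and the 5 genes most like Nppa and Nppb whose average log2 CPM reached 3.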

Additional observations from a re-analysis of the deposited data

Results flagged for a closer look

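In 78 sets of 4 libraries examined, 4 held a library far from the other 3 of its group, where chance marks about 1 in 20 such sets. The sets did not cover all genes of the lists, and they share the same libraries. The count of 4 is therefore not a test against that rate and is given as a description. Nppa in antimiR-195 replicate 2, at 1919 CPM, was 1 of them. S100a8, a neutrophil gene, was also marked in antimiR-195 replicate 2, at 20.5 CPM, against 4.37 to 5.38 CPM in the other antimiR-195 libraries. S100a8 is shorter than Nppa, and this library favoured short genes. The log2 fold change of S100a8 was 0.51 with all libraries and 0.068 with the length trend removed. Without antimiR-195 replicate 2 it was -0.37. In hydrogel replicate 3, Pde3a, a phosphodiesterase gene of the cGMP list, was low for its group at 6.19 CPM, and the cardiac factor gene Nkx2-5 was high at 88.2 CPM. Pde3a was lower still in antimiR-195 replicate 2, at 1.53 CPM. That was not marked, as the antimiR-195 libraries were spread up to 22.4 CPM. The part of cell composition or RNA quality in these values was not tested.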

How the results depend on the processing

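No gene was called in edgeR with all libraries, under upper-quartile factors, without a filter, in DESeq2, in the limma alternatives or without any 1 library, and the signs of Nppa, Npr1 and Corin held in these. Leaving out 1 library gave log2 fold changes of 0.03 to 0.64 for Nppa, -0.11 to 0.25 for Nppb, -0.14 to -0.02 for Npr1, -0.15 to 0.036 for Npr2, -0.21 to 0.13 for Npr3 and -0.46 to -0.15 for Corin. The log2 ratio of Npr1 to Npr3 differed by -0.15 to 0.17 between groups over these, that of Nppa to Nppb by 0.10 to 0.57, that of Corin to ventricular markers by -0.49 to -0.16 and that of Nppa to atrial markers by 0.28 to 1.002. With quality weights, which gave antimiR-195 replicate 2 a weight of 0.162, the sign turned for Nppb (-0.21), Npr2 (0.020) and Npr3 (0.14), while Nppa was at 0.086, Corin at -0.18 and Npr1 at -0.029. It turned for Nppb (-0.023) with the length trend removed, and for Npr2 (0.021) and Npr3 (0.080) when that was done without antimiR-195 replicate 2. The cause was not tested. Genes with an unadjusted p below 0.05 in edgeR, 178 with all libraries, numbered 428 without a filter (22669 genes tested). When 1 hydrogel library was left out, they numbered 167, 122, 104 and 311 for replicates 1 to 4. When 1 antimiR-195 library was left out, they numbered 146, 260, 352 and 335 for replicates 1 to 4. No paired analysis was possible because the labels give no replicate numbers and the numbers used follow accession order. With 4 libraries a group, the intervals do not exclude a fold of 2 for Nppa.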

Other observations

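Other cell types of the ventricle were measured by short marker lists, with 0 genes called in any of them in edgeR's quasi-likelihood test. Endocardial markers, the cells in which Npr3 is typically found, had 2 of 7 tested members above 0 in log2 fold change, and their median was -0.09. Nfatc1 was at -0.09 ± 0.13 and Cytl1 at -0.39 ± 0.20. Endothelial markers had 5 of 8 positive and a median of 0.05, conduction system markers 3 of 6 and 0.00, fibroblast markers 2 of 6 and -0.05, pericyte and smooth muscle markers 4 of 7 and 0.00, macrophage markers 1 of 6 and -0.14, and neutrophil markers 3 of 4 and 0.29. Atrial markers had 3 of 7 positive and a median of -0.09, and ventricular markers 8 of 12 and 0.03. Without antimiR-195 replicate 2 the medians were -0.27 for neutrophil, -0.04 for endothelial, -0.08 for ventricular, 0.10 for pericyte and smooth muscle, -0.21 for atrial, -0.04 for endocardial, 0.02 for conduction system, -0.01 for fibroblast and -0.22 for macrophage markers.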
